A study of Mus musculus with 8 samples.

Results

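The Usp17l and Tdpoz genes are 2 multicopy families of the mouse that are described as switched on around the two-cell stage. The members described here were taken by symbol from the deposited count table, namely Usp17la, Usp17lb, Usp17lc, Usp17ld and Usp17le, and Tdpoz1, Tdpoz2, Tdpoz3, Tdpoz4 and Tdpoz5, which makes 10 of 52636 gene rows. All 10 had counts in ZP3 Trim-away, Trim21 buffer and non-manipulated embryos, and as no earlier or later stage was sampled, the time at which they come on cannot be read from these data. Usp17l genes encode ubiquitin-specific proteases, which take ubiquitin off other proteins. Usp17la and Usp17lc are also known as Dub1 and Dub2, and were first described as genes that cytokines induce in mouse blood cells. Tdpoz genes encode small proteins made of a TRAF domain and a POZ domain, the same pair of domains as in Spop, through which Spop hands substrates to ligases built on Cullin-3. The transcripts of Tdpoz genes are known from mouse oocytes and early embryos, and the growth of both families as tandem copies leaves members that differ at few bases.

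The libraries came from pools of wild-type B6C3F1 x CD1 embryos that were collected as zygotes and grown in KSOM medium. In the ZP3 Trim-away group (n = 3 libraries), zygotes received mCherry-Trim21 mRNA (0.2 mg/mL), fluorescent dextran beads (0.02 mg/mL) and an antibody against ZP3 (1 mg/mL) at 15 h after hCG; TRIM21 is a ubiquitin ligase that binds antibodies, so that the antibody's target is sent to the proteasome. The Trim21 buffer group (n = 4) received the same mRNA and beads with the antibody's buffer in place of antibody, and the non-manipulated group (n = 1) received nothing. RNA was taken on the day after injection, when the labels place the ZP3 Trim-away embryos at E0.5, arrested with 1 cell, and the other embryos at E1.5. The treatment and the stage reached can therefore not be told apart, and in such pools fewer cells of a type and less RNA per cell cannot be told apart either. Nothing in the labels says whether libraries of a group came from separate cultures, so the p-values measure the spread between libraries, which may be technical.

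The total counts were 13228428 to 15379933 in ZP3 Trim-away libraries, 17615416 to 22427747 in Trim21 buffer libraries and 22248022 in the non-manipulated library. All 13 oocyte and early embryo markers had counts, with a summed level of 11350 to 15790 CPM (counts per 1000000 counts, scaled by TMM) in ZP3 Trim-away, 14380 to 24330 CPM in buffer and 14590 CPM in non-manipulated embryos. Of 11 cumulus cell markers 7 were detected, at 14.3 to 97.4 CPM in ZP3 Trim-away, 18.9 to 65.2 CPM in buffer and 5.48 CPM in non-manipulated embryos, with Ptx3, Cyp11a1, Fshr and Inha at 0. Of 11 sperm markers 8 were detected, at 99.1 to 192.5 CPM in ZP3 Trim-away, 27.8 to 123 CPM in buffer and 79.0 CPM in non-manipulated embryos, with Tnp1, Tnp2 and Acr at 0. The 6 oviduct markers summed to 41.8 to 249 CPM in ZP3 Trim-away, 303 to 370 CPM in buffer and 289.6 CPM in non-manipulated embryos, and 5 of 7 blood markers to 2.06 to 34.9 CPM in ZP3 Trim-away, 9.11 to 15.6 CPM in buffer and 13.2 CPM in non-manipulated embryos. Epcam alone was at 5.07, 166.3 and 167.9 CPM in ZP3 Trim-away libraries and 278.4 to 341.7 CPM in buffer libraries. Odf2 alone was at 99.1 to 184.6 CPM in ZP3 Trim-away libraries and 0.465 to 56.7 CPM in buffer libraries. The oviduct markers Foxj1 and Pax8 and the sperm markers Prm1 and Prm2 were at 3.15 CPM or below in every library. The sums therefore do not speak for each marker of their lists. The part of such other cells in the results below was not tested. Trim21, whose mRNA was injected into both treated groups, had 24727, 0 and 55 counts in the libraries labelled ZP3 Trim-away replicates 1, 2 and 3, against 15576 to 205653 counts in Trim21 buffer libraries and 0 in the non-manipulated one. The libraries labelled ZP3 Trim-away replicates 2 and 3 were thus far below all other injected libraries in the mRNA that their label calls for. The study's text also gives the sizes of the ZP3 Trim-away and buffer groups the other way round from the labels, and the labels are followed here. Zp3 mRNA was at 28.3, 54.7 and 55.6 CPM in ZP3 Trim-away libraries, against 105.3, 141.3, 120.5 and 107.5 CPM in buffer libraries (log2 fold change -1.36, edgeR adjusted p = 0.0550), but Trim-away acts on the protein, so this is no check of the label. Group names stand for the labels throughout. The fitted values of the members and lists are also given without ZP3 Trim-away replicates 2 and 3. The low-count filter was run again for that fit, which tested 18279 genes, against 13641 in the reported fit. Its median log2 fold change over all genes (-1.24, against -0.04) therefore covers another set of genes. It is no common baseline for single values.

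Sequence around the start was available for 7 of the 10 members, as RefSeq windows of 250 bases before to 50 bases after an annotated start (GRCm38.p6), while Usp17le, Tdpoz2 and Tdpoz3 had no window. A set of 3 short motifs was searched on both strands of each window. TATAAA, the core of the TATA box, was in 13.6% of 32851 windows genome-wide, TAATCC, bound by homeodomain proteins of the OTX and OBOX kind, in 7.06%, and a double homeobox motif of the mouse Dux type in 0.0335%. The 4 Usp17l windows aligned with 91.7% to 96.8% identity. The following 90-base stretch is shown because the most abundant member, Usp17lb, and the Usp17l member with the largest fitted difference, Usp17la, differ in it. Capitals mark TATAAA, and each stretch reads 5′ to 3′ on the strand of its gene.
Usp17lb (chr7:104842581-104842670, minus strand): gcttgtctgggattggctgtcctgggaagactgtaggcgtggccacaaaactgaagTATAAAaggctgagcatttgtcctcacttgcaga
Usp17la (chr7:104856914-104857003, plus strand): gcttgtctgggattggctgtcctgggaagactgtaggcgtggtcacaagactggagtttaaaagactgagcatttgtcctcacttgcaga
Usp17lc (chr7:103416552-103416641, plus strand): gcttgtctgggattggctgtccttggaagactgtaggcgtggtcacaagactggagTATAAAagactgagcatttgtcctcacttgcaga
Usp17ld (chr7:103252582-103252671, minus strand): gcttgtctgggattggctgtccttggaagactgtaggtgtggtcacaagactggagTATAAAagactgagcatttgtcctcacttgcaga

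Counted from 1 at the 5′ end of the stretch, Usp17la differed from Usp17lb at 5 bases (C43T, A49G, A54G, A58T and G65A), and A58T falls within the TATAAA letters. The motif began 31 bases before the annotated start of Usp17lb, 88 bases before that of Usp17lc and 110 bases before that of Usp17ld, and neither TAATCC nor the Dux-type motif was found in any of the 4 windows.

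Among the Tdpoz windows, Tdpoz1 resembled the relatives Tdpoz9 (100% identity over 272 aligned bases), the first of 2 annotated starts of Tdpoz8 (89.1%) and Spopfm2 (83.5%), and each of these held 1 TAATCC. The window of the second Tdpoz8 start held none of the 3 motifs and matched Tdpoz4 at 96.2% of 293 aligned bases. The stretches of Tdpoz1 and of the first Tdpoz8 start are shown with that motif in capitals, since it is the only motif of the 3 that a Tdpoz window held.
Tdpoz1 (chr3:93676330-93676449, minus strand): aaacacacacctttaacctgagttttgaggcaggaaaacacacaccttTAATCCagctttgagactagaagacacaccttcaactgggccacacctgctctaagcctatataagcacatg
Tdpoz8 (chr3:93068684-93068803, plus strand): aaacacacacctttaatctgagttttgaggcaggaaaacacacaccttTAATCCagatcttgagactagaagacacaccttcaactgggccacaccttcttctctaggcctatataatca

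The windows of Tdpoz4 and Tdpoz5 held none of the 3 motifs. Tdpoz5 and its relative Tdpoz7 differed at 1 base of the 300-base window (G179A, counted from its 5′ end), which is set in capitals in the stretches below because it is nearly all that separates these genes.
Tdpoz5 (chr3:93961356-93961416, minus strand): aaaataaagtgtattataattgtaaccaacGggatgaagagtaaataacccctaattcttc
Tdpoz7 (chr3:94072686-94072746, minus strand): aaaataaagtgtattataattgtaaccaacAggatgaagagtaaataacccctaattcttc

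These similarities limit how well the counts can be assigned to single members. The reads had 72 bases, and a window of that length found in more than 1 annotated gene cannot be placed by its sequence. In GENCODE M21 (GRCm38), 91.6% of the 72-base windows of Usp17la transcripts were found in no other gene, against 84.6% for Usp17lb, 83.7% for Usp17le, 63.7% for Usp17lc and 55.8% for Usp17ld. Usp17lc and Usp17ld shared 846 windows, and their coding sequences were 98.4% identical, the highest value among Usp17l pairs, which otherwise lay between 90.7% and 94.5%. Tdpoz4 (78.0%), Tdpoz1 (66.9%) and Tdpoz2 (65.4%) had most windows to themselves, whereas Tdpoz3 shared 55.5% of its windows with the pseudogene Gm4982. Tdpoz5 had none of its own, as all 952 windows recurred in Tdpoz7, whose coding sequence was 100% identical. Tdpoz7 was listed with 0 counts in all 8 libraries while Tdpoz5 had 14 to 83, so what is listed for Tdpoz5 cannot be told from reads of Tdpoz7. Tdpoz5 also shared 53.2% of its windows with Gm37596 and 24.7% with Gm5543. Over the 8 libraries these stood at 4.04 to 12.0 CPM and 36.8 to 113.6 CPM, so their reads may also be among those listed for Tdpoz5. The deposited table gives its Tdpoz7 row the coordinates of Tdpoz5, whereas GENCODE M21 places Tdpoz7 at 94071622-94072644 of chromosome 3, so the position to which its 0 counts refer is not known. In GENCODE M21, no exon of a member overlapped an exon of another annotated gene.

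**Figure D1:**
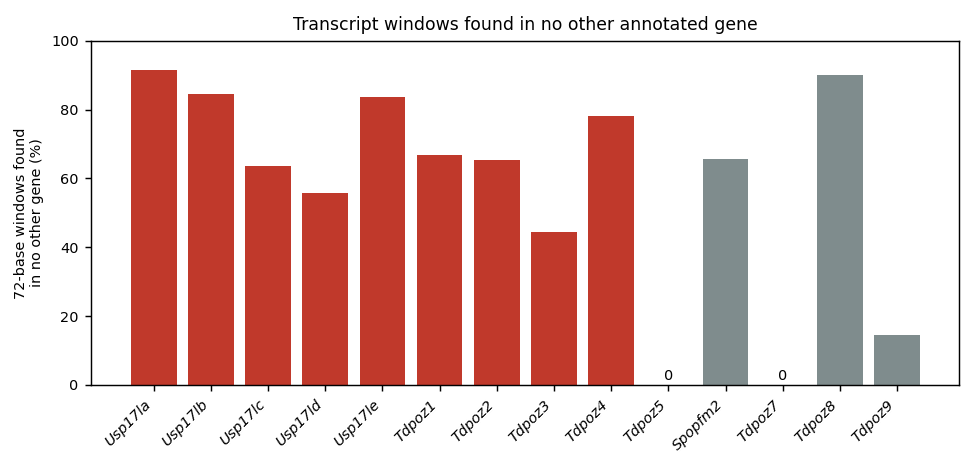
Percentage of the 72-base windows of each gene's annotated transcripts that occur in no other annotated gene (vertical axis), for the 10 members in red and 4 relatives in grey. Usp17la has the most windows of its own (91.6%), and Tdpoz5 and Tdpoz7 have none.

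The Usp17l members lie on chromosome 7 over 1613 kb, with Usp17ld (103249737-103252505, minus strand) and Usp17lc (103415072-103419880, plus strand) 162.6 kb apart at one end. At the other end lie Usp17le (104768049-104777470, minus strand), Usp17lb (104840257-104842603, minus strand) and Usp17la (104857009-104862667, plus strand), the last pair 14.4 kb apart. The Tdpoz members lie within 309.8 kb of chromosome 3, in the order Tdpoz2 (93651542-93652686, minus), Tdpoz1 (93669333-93676310, minus), Tdpoz4 (93796398-93797510, plus), Tdpoz3 (93826020-93827117, plus) and Tdpoz5 (93960292-93961314, minus). All 10 are annotated as protein coding.

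Within the Trim21 buffer group, the level per kilobase of exon was highest for Usp17lb, at 525 ± 76.2 CPM per kb (SD, n = 4), followed by Tdpoz1 at 32.5 ± 10.7 CPM per kb, and neither range overlapped that of the next gene. The other members averaged between 9.49 (Tdpoz3) and 2.57 (Tdpoz5) CPM per kb, in the order Tdpoz3, Usp17le, Tdpoz4, Usp17lc, Tdpoz2, Usp17la, Usp17ld and Tdpoz5, and the ranges of all neighbours in that order overlapped. In ZP3 Trim-away libraries Usp17lb (523 ± 185 CPM per kb, n = 3) and Tdpoz1 (44.2 ± 7.97 CPM per kb) again came first. The order depends on which length is used, because the deposited RPKM values divide by a gene width that includes introns. For Usp17le this width was 9422 bases against 1987 bases of exon, and the gene moved from the 4th place in the buffer group by exon length to the 10th by deposited RPKM. The choice of length does not touch comparisons between groups, which are made within a gene.

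All 10 members passed the filter on low counts, and the comparison of ZP3 Trim-away with Trim21 buffer called 0 of them at an adjusted p of 0.05 (edgeR quasi-likelihood test over 13641 genes, Benjamini-Hochberg), where 6.90% of all genes tested were called (2.98% higher and 3.91% lower). At an unadjusted p of 0.05, 0 of 10 passed in this edgeR fit, against 21.3% of all genes. DESeq2, limma-voom and limma on log2 RPKM also called 0 of the 10 members, while calling 17.3%, 10.4% and 12.0% of the genes they tested (the last with a pseudocount of 0.1). The fitted log2 fold changes were above 0 for 4 of 5 Usp17l members (median 0.91) and for 4 of 5 Tdpoz members (median 0.44), where the median over all genes was -0.04. With a common biological coefficient of variation of 1.16, the 95% intervals were wide and included 0 for all 10 members. The absence of calls therefore does not exclude differences of members.

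**Figure D2:**
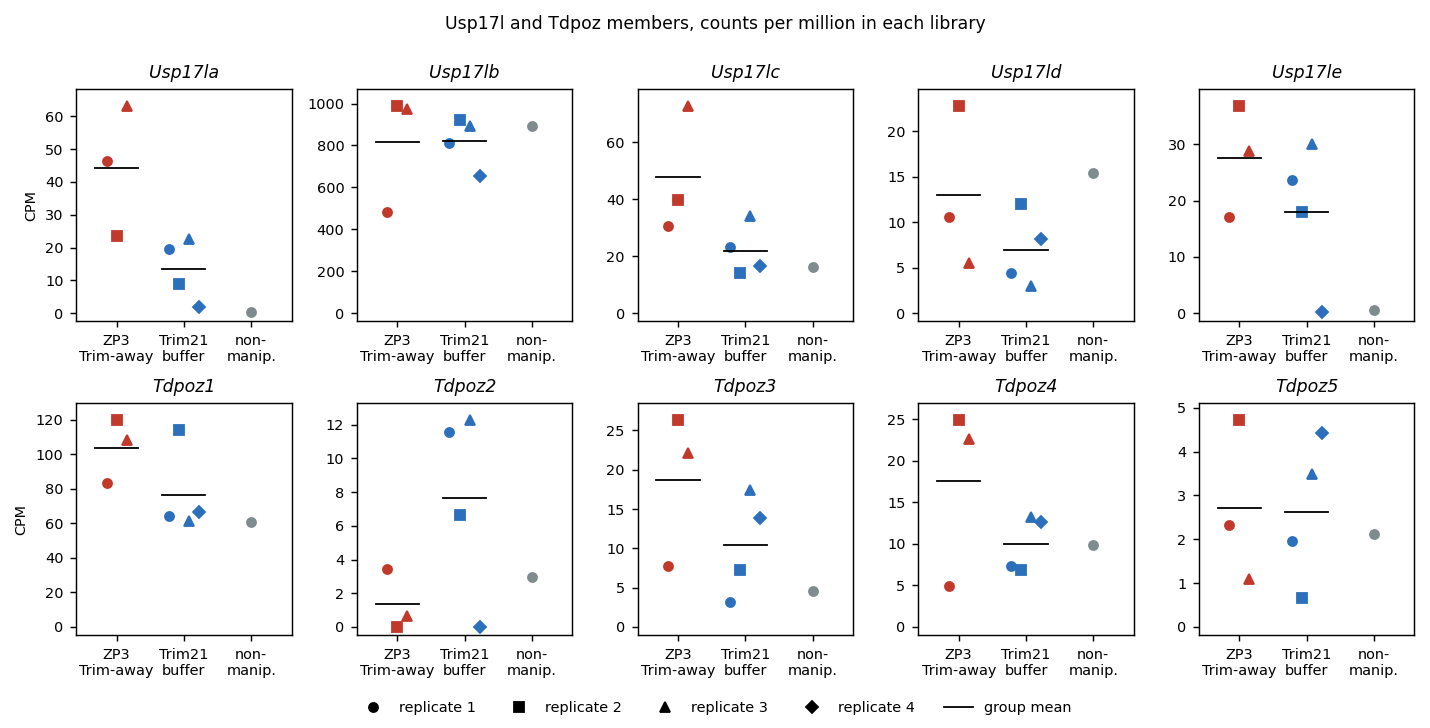
Level of each member in each of the 8 libraries, in CPM on a linear axis that includes 0 and is scaled for each gene; the symbol shape gives the replicate number and the black line the mean of a group with more than 1 library. Usp17la is the only member whose 3 ZP3 Trim-away libraries (23.5 to 63.2 CPM) all lie above the 4 Trim21 buffer libraries (1.91 to 22.7 CPM).

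Usp17la, the founding Dub1 gene, stood at 46.3, 23.5 and 63.2 CPM in ZP3 Trim-away replicates 1 to 3, against 19.6, 8.98, 22.7 and 1.91 CPM in Trim21 buffer replicates 1 to 4 and 0.304 CPM in the non-manipulated library. Each ZP3 Trim-away library was above each buffer library, the closest being ZP3 Trim-away replicate 2 and buffer replicate 3, and the non-manipulated library had only 7 counts. The fitted log2 fold change was 1.74 (SE 0.83, 95% interval -0.15 to 3.62), with an adjusted p of 0.281 by edgeR and of 0.118 to 0.502 over the 18 alternatives tried. Usp17la was the only one of the 10 members whose groups did not overlap, and the same pattern, all ZP3 Trim-away libraries higher, was found in 13.1% of all genes tested (15.5% were lower in all of them, and 28.6% did not overlap in either direction).

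Usp17lb gave most of the reads of its family. It stood at 483.9, 989.8 and 976 CPM in ZP3 Trim-away libraries, against 813.6, 919.9, 891.8 and 655 CPM in buffer libraries and 892.9 CPM in the non-manipulated one. ZP3 Trim-away replicate 1 was the lowest of all libraries and replicates 2 and 3 were the highest. The log2 fold change was -0.0044 (SE 0.28, 95% interval -0.64 to 0.63, edgeR adjusted p = 0.997). Without ZP3 Trim-away replicates 2 and 3 it was -0.79, in a fit where the median over all genes was -1.24.

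Usp17lc, the Dub2 gene, stood at 30.7, 39.5 and 72.8 CPM in ZP3 Trim-away libraries, against 23.2, 14.0, 34.2 and 16.4 CPM in buffer libraries and 16.3 CPM in the non-manipulated one. Only buffer replicate 3 reached into the range of the ZP3 Trim-away libraries. Usp17lc had a log2 fold change of 1.12 (SE 0.56, 95% interval -0.15 to 2.39; edgeR adjusted p = 0.302).

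Usp17ld, its near-identical copy, did not follow Usp17lc from library to library. It stood at 10.6, 22.8 and 5.52 CPM in ZP3 Trim-away libraries, against 4.47, 12.1, 2.98 and 8.19 CPM in buffer libraries and 15.4 CPM in the non-manipulated one. The groups overlapped, and ZP3 Trim-away replicate 3 and buffer replicate 3, the highest libraries of their groups for Usp17lc, were the lowest for Usp17ld. The fit gave a log2 fold change of 0.91 (SE 1.01, 95% interval -1.37 to 3.19; edgeR adjusted p = 0.704), and 0.21 without ZP3 Trim-away replicate 2, its highest library.

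Usp17le stood at 17.01, 36.9 and 28.9 CPM in ZP3 Trim-away libraries, against 23.7, 18.1, 30.1 and 0.123 CPM in buffer libraries and 0.609 CPM in the non-manipulated one. Buffer replicate 4 and the non-manipulated library were close to 0, with 2 and 14 counts, and the other 6 libraries lay within one range. Its log2 fold change was 0.62 (SE 1.19, 95% interval -2.06 to 3.30, edgeR adjusted p = 0.844). It was -0.12 without ZP3 Trim-away replicates 2 and 3, where the median over all genes was -1.24.

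Usp17la and Usp17le were thus low in the same 2 libraries, whereas Usp17lb, which lies between them on the chromosome, was at 655 and 892.9 CPM there. Of 4467 genes above 8 CPM in each of the other 6 libraries, 9 were below 2 CPM in both of these, namely Usp17la, Usp17le, Hp1bp3, Ankrd27, Fbxl4, Patl1, Thnsl1, Zfp52 and Stx17. Other pairs of libraries gave 0 to 29 such genes. The 2 libraries were taken from these members, and the limits lie close to Usp17la's own values (1.91 CPM in buffer replicate 4, 8.98 CPM in buffer replicate 2). Usp17la and Usp17le are thus in the count by construction. Across the 8 libraries, log2 CPM of Usp17la and Usp17le had the highest correlation of any pair of members (Pearson r = 0.858), while Usp17la and Usp17lb had r = -0.059. These correlations describe 8 libraries that share their depth and group structure, and that of Usp17la with Usp17le includes the 2 low libraries.

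Summed over the family, the Usp17l members reached 588.5, 1113 and 1146 CPM in ZP3 Trim-away libraries, against 884.6, 973, 981.9 and 681.6 CPM in buffer libraries and 925.5 CPM in the non-manipulated one. The groups overlapped, at 949 ± 313 CPM (SD, n = 3) in ZP3 Trim-away and 880 ± 139 CPM (n = 4) in buffer libraries. Usp17lb made up 82.2% (95% Wilson interval 81.3% to 83.1%), 89.0% (88.5% to 89.4%) and 85.1% (84.6% to 85.7%) of the family's counts in ZP3 Trim-away replicates 1 to 3. In Trim21 buffer replicates 1 to 4 its share was 92.0% (91.6% to 92.4%), 94.5% (94.2% to 94.8%), 90.8% (90.5% to 91.2%) and 96.1% (95.7% to 96.4%), and it was 96.5% (96.2% to 96.7%) in the non-manipulated library. Every ZP3 Trim-away library was below every buffer library in this share, with intervals that cover counting error only. The levels of 28.6% of all genes tested did not overlap in either direction, but no such background was computed for shares within a family. Without Usp17lb, the other 4 members summed to 104.6, 122.8 and 170.4 CPM in ZP3 Trim-away libraries, against 71.0, 53.1, 90.03 and 26.6 CPM in buffer libraries and 32.6 CPM in the non-manipulated one. These sums also did not overlap, and they are given without a test, as they were formed with the values of the members known.

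**Figure D3:**
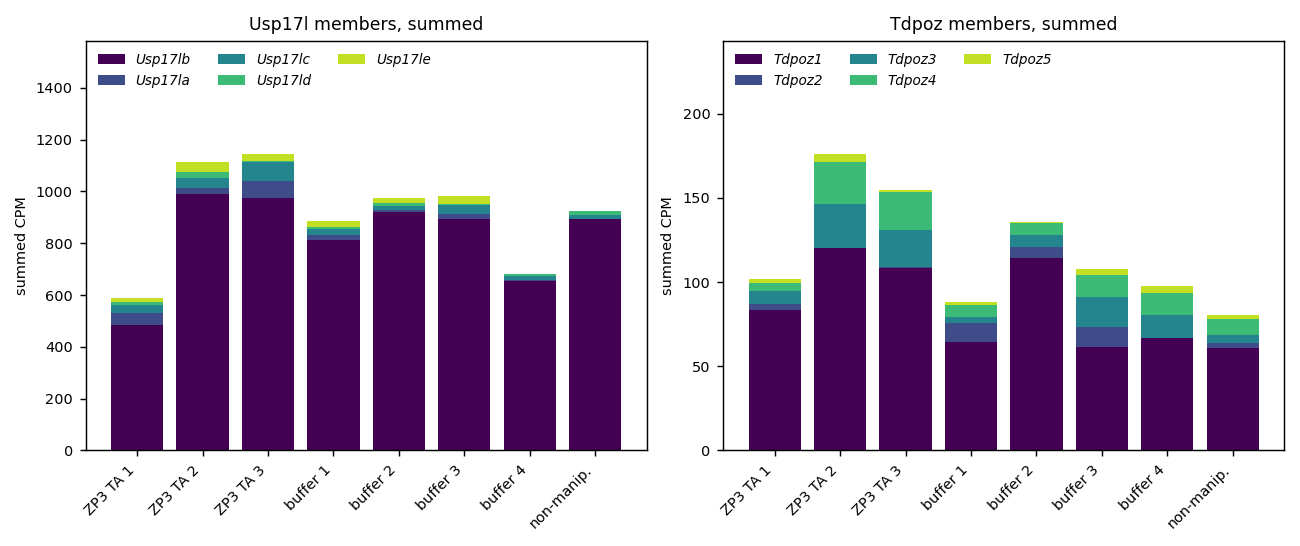
Summed CPM of the Usp17l members (left) and the Tdpoz members (right) in each library, stacked by member, with ZP3 Trim-away (TA) libraries left of Trim21 buffer and non-manipulated libraries; both axes start at 0 and have different scales. Usp17lb fills 82.2% to 89.0% of the Usp17l counts in ZP3 Trim-away libraries and 90.8% to 96.1% in buffer libraries.

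Among the Tdpoz members, Tdpoz1 was the most abundant. It stood at 83.4, 120.2 and 108.1 CPM in ZP3 Trim-away libraries, against 64.3, 114, 61.2 and 66.7 CPM in buffer libraries and 60.9 CPM in the non-manipulated one. Buffer replicate 2 lay among the ZP3 Trim-away libraries, and the other 3 buffer libraries and the non-manipulated one were close together below them. Tdpoz1 had a log2 fold change of 0.44 (SE 0.35, 95% interval -0.34 to 1.22; edgeR adjusted p = 0.547).

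Tdpoz2 was the only Tdpoz member with a fitted value below 0. It stood at 3.44, 0 and 0.642 CPM in ZP3 Trim-away libraries, against 11.5, 6.65, 12.3 and 0 CPM in buffer libraries and 2.96 CPM in the non-manipulated one. It was undetected in ZP3 Trim-away replicate 2 and buffer replicate 4, where 0 counts allow up to 0.195 and 0.185 CPM (3 counts). The 3 other buffer libraries were above all ZP3 Trim-away libraries, but with buffer replicate 4 the groups overlapped. Its log2 fold change was -2.49 (SE 2.22, 95% interval -7.51 to 2.53; edgeR adjusted p = 0.611), and it was -4.54 without ZP3 Trim-away replicate 1.

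Tdpoz3 and Tdpoz4 lie 28.5 kb apart on the same strand, and their levels had the second highest correlation among pairs of members (r = 0.795 over 8 libraries). Tdpoz3 stood at 7.73, 26.4 and 22.1 CPM in ZP3 Trim-away libraries, against 3.16, 7.26, 17.4 and 13.9 CPM in buffer libraries and 4.61 CPM in the non-manipulated one (log2 fold change 0.85, SE 0.90, edgeR adjusted p = 0.684). Tdpoz4 stood at 4.90, 24.96 and 22.7 CPM in ZP3 Trim-away libraries, against 7.31, 6.89, 13.2 and 12.7 CPM in buffer libraries and 9.91 CPM in the non-manipulated one (log2 fold change 0.81, SE 0.87, edgeR adjusted p = 0.693). For both genes ZP3 Trim-away replicates 2 and 3 were the highest libraries, and ZP3 Trim-away replicate 1 lay within the buffer range for Tdpoz3 and below it for Tdpoz4. Without ZP3 Trim-away replicates 2 and 3 the log2 fold changes were -0.46 for Tdpoz3 and -1.06 for Tdpoz4, where the median over all genes was -1.24.

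Tdpoz5, which cannot be told from Tdpoz7, stood at 2.32, 4.73 and 1.09 CPM in ZP3 Trim-away libraries, against 1.95, 0.651, 3.49 and 4.43 CPM in buffer libraries and 2.13 CPM in the non-manipulated one. The groups overlapped over nearly their whole range. The log2 fold change was 0.05 (SE 1.35, 95% interval -3.0 to 3.09; edgeR adjusted p = 0.993).

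Summed over the family, the Tdpoz members reached 101.8, 176.3 and 154.7 CPM in ZP3 Trim-away libraries, against 88.3, 135.5, 107.6 and 97.6 CPM in buffer libraries and 80.5 CPM in the non-manipulated one. ZP3 Trim-away replicate 1 lay within the buffer range and replicates 2 and 3 above it. Tdpoz1 made up 68.2% to 81.9% of the counts in ZP3 Trim-away libraries, 56.9% to 84.2% in buffer libraries and 75.6% in the non-manipulated one, so its share overlapped between the groups, unlike that of Usp17lb.

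The number of members that separated the groups changed when single libraries were left out. Without ZP3 Trim-away replicate 1, the only library of its group with Trim21 counts at the level of the buffer libraries, 5 of 10 members (Usp17la, Usp17lb, Usp17lc, Tdpoz3 and Tdpoz4) were higher in both remaining ZP3 Trim-away libraries than in any buffer library, where 17.3% of all genes were. Without ZP3 Trim-away replicate 2 or replicate 3, Usp17la was again the only one, where 17.8% and 17.2% of all genes were higher. Without buffer replicate 2 Tdpoz1 joined Usp17la (15.3% of all genes), without buffer replicate 3 Usp17lc did (15.8%), and without buffer replicate 4 Tdpoz2 was lower in all ZP3 Trim-away libraries (18.3% of all genes). With ZP3 Trim-away replicate 1 as the only library of its group, the median log2 fold change over all genes was -1.24. The log2 fold changes were then 1.76 for Usp17la, 0.45 for Usp17lc, 0.58 for Usp17ld, 0.09 for Tdpoz1 and -1.19 for Tdpoz2.

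**Figure D4:**
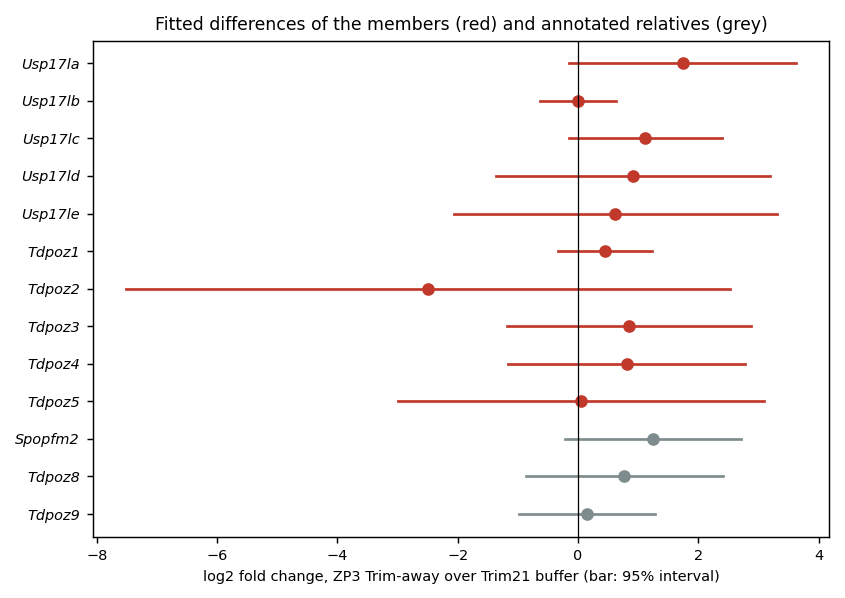
Fitted log2 fold change of ZP3 Trim-away over Trim21 buffer with its 95% interval (horizontal axis) for the 10 members in red and the relatives Spopfm2, Tdpoz8 and Tdpoz9 in grey. Every interval includes 0, from the narrowest at Usp17lb (-0.64 to 0.63) to the widest at Tdpoz2 (-7.51 to 2.53).

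The annotated relatives on chromosome 3 were not called either. Spopfm2, a Spop-like gene of the same cluster, stood at 30.3, 30.3 and 29.7 CPM in ZP3 Trim-away libraries, against 8.24, 19.7, 14.1 and 8.86 CPM in buffer libraries and 7.22 CPM in the non-manipulated one. The ZP3 Trim-away libraries were close together and all above the buffer libraries, with a log2 fold change of 1.24 (SE 0.64) that did not pass the test (edgeR adjusted p = 0.323). Tdpoz8 stood at 31.5, 24.7 and 16.9 CPM in ZP3 Trim-away libraries, against 7.86, 10.2, 27.0 and 12.3 CPM in buffer libraries (log2 fold change 0.76, edgeR adjusted p = 0.638). Tdpoz9, listed under the name Gm9125 in GENCODE M21, had 14.4% of its windows to itself and lay between 25.5 and 35.9 CPM in ZP3 Trim-away libraries, against 21.8 to 32.9 CPM in buffer libraries (log2 fold change 0.15, edgeR adjusted p = 0.921).

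The members can be read beside a list of genes of the two-cell programme, which includes the Zscan4 genes, Zfp352 and the Tcstv genes. Of 31 rows, 27 were tested and 0 were called by edgeR (6 at an unadjusted p of 0.05, or 22.2% against 21.3% of all genes). DESeq2 called 5 of the 27, 4 higher and 1 lower, where it called 17.3% of all genes. By limma-voom 3 were called, all higher, where 10.4% of all genes were. Of the 27, 20 had a log2 fold change above 0, with a median of 1.02. All ZP3 Trim-away libraries were above all buffer libraries for 11 (40.7%, against 13.1% of all genes), and all below for 1, Spz1 (15.5% of all genes). The list holds several genes of the same family, such as the Zscan4 and Tcstv genes, and shared windows were not computed for it. Its rows may therefore not be separate observations, and this share was not tested. Without ZP3 Trim-away replicates 2 and 3, 21 of 29 were above 0, where 6696 of 18279 genes were. Their median was 0.69, where that of all genes was -1.24. Zscan4d, a telomere and genome stability factor of two-cell embryos, stood at 634, 471.1 and 567.9 CPM in ZP3 Trim-away libraries, against 98.6, 322.1, 295.9 and 208.5 CPM in buffer libraries and 97.6 CPM in the non-manipulated one. The groups did not overlap, and the log2 fold change was 1.27 (SE 0.37, edgeR adjusted p = 0.0775), and 1.42 without ZP3 Trim-away replicates 2 and 3.

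Zfp352, a zinc finger gene of the same stage, averaged 627 ± 116 CPM in ZP3 Trim-away and 301 ± 101 CPM in buffer libraries (SD, n = 3 and 4), with a log2 fold change of 1.06 and an edgeR adjusted p of 0.0662 (log2 fold change 0.69 without ZP3 Trim-away replicates 2 and 3). Gm5662 (log2 fold change 1.24, adjusted p = 0.112) and Gm8300 (1.33, adjusted p = 0.138) were also higher in every ZP3 Trim-away library than in any buffer library. Among the other Zscan4 genes the edgeR log2 fold changes were 0.71 for Zscan4a, 1.35 for Zscan4b, 0.51 for Zscan4c and -0.11 for Zscan4f, with adjusted p-values of 0.303 to 0.9504, and their groups overlapped.

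**Figure D5:**
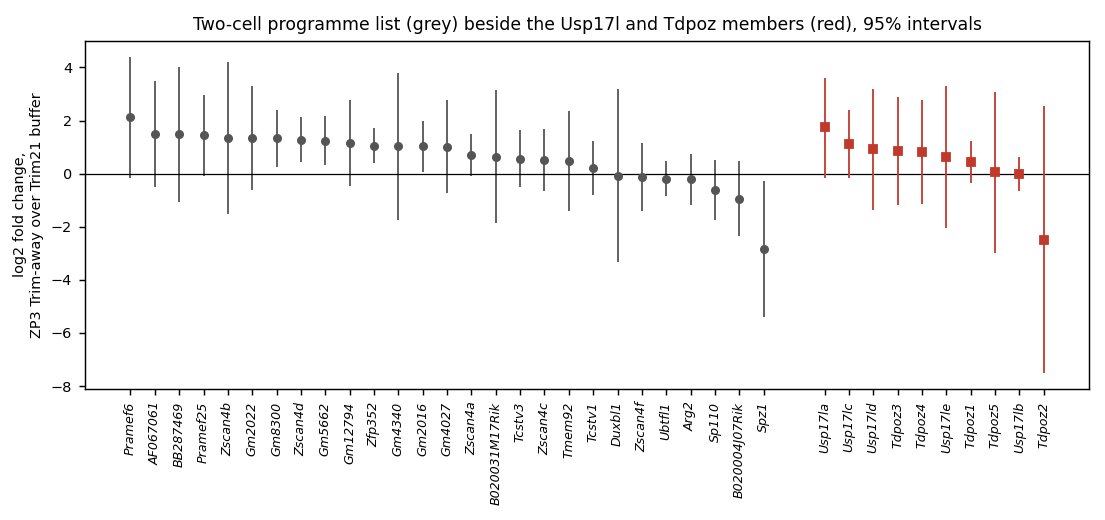
Fitted log2 fold change of ZP3 Trim-away over Trim21 buffer (vertical axis, bars are 95% intervals) for 27 genes of the two-cell programme in grey, sorted by value, and the 10 members in red. The medians are 1.02 for the list, 0.91 for the Usp17l members and 0.44 for the Tdpoz members, and the members' intervals all include 0.

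Other genes of the pathways to which the families belong were called at 8.70% (ubiquitin-specific proteases) and 9.68% (Cullin-3 genes), where 6.90% of all genes tested were. Of 46 tested ubiquitin-specific protease genes outside the Usp17l family, 4 were higher in ZP3 Trim-away libraries, 0 were lower and 42 did not pass, with a median log2 fold change of 0.29. Usp46, a protease that acts together with WD-repeat cofactors, averaged 810 ± 361 CPM in ZP3 Trim-away and 49.0 ± 30.3 CPM in buffer libraries (log2 fold change 4.05, edgeR adjusted p = 0.00581). Usp28, known for sparing the MYC protein from breakdown, averaged 413 ± 45.3 CPM in ZP3 Trim-away and 118 ± 33.2 CPM in buffer libraries (1.80, adjusted p = 0.00970 by edgeR). The other 2 that rose were Usp15, an antagonist of ubiquitin ligases in TGF-beta signalling (1.24, edgeR adjusted p = 0.0155), and Usp2, which takes part in the circadian clock (2.05, edgeR adjusted p = 0.0412). The non-manipulated library was above every buffer library for Usp28 (191.8 CPM) and Usp2 (44.7 CPM). It lay within the buffer range for Usp46 (75.7 CPM) and Usp15 (459 CPM). Over the list of 46, 8 genes (17.4%, against 13.1% of all genes) had all ZP3 Trim-away libraries above all buffer libraries, the 4 called ones among them. For 4 other genes all lay below (15.5% of all genes). Without ZP3 Trim-away replicates 2 and 3 the median of the list was -0.48, with 19 of 47 genes above 0, where that of all genes was -1.24. The log2 fold changes were then 4.59 for Usp46, 1.64 for Usp28, 1.45 for Usp15 and 2.05 for Usp2. With 1 ZP3 Trim-away library left, no call is read from that fit. Leaving out buffer replicate 2 left 2 calls of 46, without Usp15 (edgeR adjusted p = 0.0511), where 466 of 12975 genes were called. Usp2 passed in 0 of the 7 fits that left out 1 library (edgeR adjusted p 0.0506 to 0.126).

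Of 31 tested genes for Cullin-3 ligases and their adaptors, the pathway in which Spop works, 2 were higher in ZP3 Trim-away libraries. Of the others, 1 was lower and 28 did not pass (median log2 fold change -0.06). Without ZP3 Trim-away replicates 2 and 3 the median was -0.21, where that of all genes was -1.24. Dcun1d1, which helps to attach NEDD8 to cullins, averaged 1045 ± 197 CPM in ZP3 Trim-away and 298 ± 51.7 CPM in buffer libraries (log2 fold change 1.81, edgeR adjusted p = 0.00581). In the same fit Kbtbd8, a substrate adaptor of Cullin-3, averaged 1699 ± 203 CPM in ZP3 Trim-away and 485 ± 177 CPM in buffer libraries (1.81, edgeR adjusted p = 0.00968). The non-manipulated library was at 444.7 CPM for Dcun1d1 and 822.3 CPM for Kbtbd8, above every buffer library and below every ZP3 Trim-away library. Cul3 itself, the scaffold of these ligases, fell to 91.5 ± 12.1 CPM in ZP3 Trim-away libraries (-1.61, edgeR adjusted p = 0.0288). It averaged 279 ± 113 CPM in buffer libraries and stood at 233.1 CPM in the non-manipulated one. Its call was lost in 6 of the 7 fits that left out 1 library, all but that without buffer replicate 1 (edgeR adjusted p 0.0347 to 0.101). Without ZP3 Trim-away replicates 2 and 3 its log2 fold change was -1.74. Nedd8, the modifier of cullins, had a log2 fold change of -0.88 (edgeR adjusted p = 0.132), and Spop, the closest single-copy relation of the Tdpoz genes, one of -0.64 (edgeR adjusted p = 0.330).

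The genes whose level followed each family most closely over the 8 libraries were named by Pearson correlation of log2 CPM with the log2 summed CPM of the family, among 9563 candidates averaging 5 CPM or more. For the Usp17l sum they were Sel1l (r = 0.989), Rfx7 (0.973), Rnd1 (0.961), Slc10a3 (0.958) and Tubb5 (0.954), and none of the 5 was called between the groups. As Usp17lb made up 82.2% to 96.5% of the Usp17l counts, these genes mainly follow Usp17lb. Its own correlation with the other Usp17l members was only -0.059 to 0.273. Sel1l, a subunit of the ligase that clears misfolded proteins from the endoplasmic reticulum, stood at 3.61, 40.8 and 41.1 CPM in ZP3 Trim-away libraries, against 20.98, 24.8, 30.8 and 6.28 CPM in buffer libraries and 16.9 CPM in the non-manipulated one. Like Usp17lb it was lowest in ZP3 Trim-away replicate 1, next lowest in buffer replicate 4 and highest in ZP3 Trim-away replicates 2 and 3. For the Tdpoz sum the genes were Efl1 (0.959), Tacc1 (0.947), Gm5083 (0.945), Atmin (0.940) and the unnamed gene ENSMUSG00000086151 (0.940), again with none called. These values are descriptions over 8 libraries, picked as the highest among these candidates.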

How the data were processed

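RNA of embryo pools was sequenced as single 72-base reads (8 libraries). Per the labels and the study's methods, the authors trimmed reads with Trimmomatic, aligned them to GRCm38 with HISAT2 and deposited whole-number counts per gene from htseq-count, with RPKM values beside them that divide by gene width. The study's text does not say how strand or reads with several positions were handled. The counts are the unit of the main test, and the deposited RPKM column served for 2 alternatives (log2 of RPKM plus 0.1 or 1).

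Genes were kept by filterByExpr and tested with edgeR 4.0.16 (TMM, quasi-likelihood, Benjamini-Hochberg) in R 4.3.3, with 3 ZP3 Trim-away and 4 Trim21 buffer libraries in the fit and the non-manipulated library outside it. Intervals are 95% intervals from the fit. limma 3.58.1 and DESeq2 1.42.0 served as alternatives, as did other scalings, no filter, a replicate block and leaving out libraries. The fitting script was tested on counts simulated with the spread of these data, with 100 genes changed 4-fold and 100 changed 16-fold. It called 8% of the former and 31% of the latter, so a gene that was not called may still differ. Correlations used log2 CPM with a prior count of 2. Positions and transcripts came from GENCODE M21, and start windows from RefSeq.

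All 10 members are described. Named beside them are rows with symbols starting in Usp17l, Dub1, Dub2, Tdpoz or Spopfm, up to 4 genes of each list with the smallest p plus the Zscan4 genes, the 5 genes most like each family sum, Trim21 and Zp3. Tdpoz9, Gm4982, Gm37596, Gm5543, the genes low together with Usp17la and Usp17le, Spz1 and Spop were named after their values were seen. The members and lists were chosen with earlier results of these data known.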

Additional observations from a re-analysis of the deposited data

Results flagged for a closer look

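Of 23 sets of 4 Trim21 buffer libraries examined (members, relatives and family sums), 2 had a library far from the other 3, where chance flags about 1 in 20 groups. Tdpoz1 was at 114 CPM in buffer replicate 2, with a gap to the nearest library of 0.897 of the whole range. Gm5773, a coding gene that shares 27.0% of the windows of Tdpoz2, was at 5.50 CPM in buffer replicate 3 (0.923 of the range), the library in which Tdpoz2 was also highest.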

How the results depend on the processing

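No member passed the threshold under any of the 18 alternatives (180 values, adjusted p 0.118 to 1), and 166 of the 180 log2 fold changes kept their direction. Usp17lb, which lies at 0, was above it with RLE size factors (0.04), with DESeq2 (0.04), with all 8 libraries in the fit (0.00033) and with identifiers of a symbol summed (0.02), and ranged from -0.16 to 0.26 with single libraries left out. Tdpoz2 was -4.48 with the replicate block, against -2.49. Tdpoz5 ranged from -0.62 to 0.43 with single libraries left out. In an alternative chosen after seeing the data, without both Trim-away libraries low in Trim21, Usp17le (-0.12), Tdpoz3 (-0.46), Tdpoz4 (-1.06) and Tdpoz5 (-0.20) turned below 0. The median over all genes was -1.24 there, over 18279 genes, against -0.04 over 13641 genes in the reported fit. The low-count filter was run again with fewer libraries, so the 2 medians cover different genes. That fit leaves 1 ZP3 Trim-away library, which is assumed to vary like the buffer libraries.

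The count of all genes changed was 941 in the reported fit (407 higher and 534 lower), 2362 with DESeq2, 1412 with limma-voom, 1566 with limma on log2(RPKM + 1), and 408 to 694 with single libraries left out. For the two-cell programme the count was 1 with RLE size factors, 1 without a low-count filter, 5 with DESeq2, 3 with limma-voom, 1 with limma on log2(RPKM + 1), and 0 to 1 with single libraries left out (1 without buffer replicate 3). For ubiquitin-specific proteases it was 7 of 46 with DESeq2, which called 17.3% of all genes, and 2 to 4 with single libraries left out (2 without buffer replicate 2). For Cullin-3 genes it was 5 with limma on log2(RPKM + 1). The cause of these shifts was not tested. Libraries with the same replicate number did not deviate together (correlations of -0.0613, 0.00626 and -0.000343). These values give no sign that the numbers pair the samples, but with so few libraries they cannot exclude it. With the replicate block, 0 of all genes were called, 0 ubiquitin-specific proteases and 0 Cullin-3 genes.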
